A study of Mus musculus with 9 samples.

Results

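The genes described here are 9 transcriptional regulators that carry timing out of the circadian clock or feed back on it, namely Dbp, Tef, Hlf, Nfil3, Nr1d1, Nr1d2, Rora, Bhlhe40 and Bhlhe41. They were chosen by gene symbol from the 51912 genes listed in the liver table, with the levels of clock genes in these same livers already known, so all of their values are a description and none supports the choice. All 9 were found once each, and all 9 had a mean high enough to be tested among 12051 genes. The livers came from mice given an antisense oligonucleotide (ASO), a short modified DNA strand that directs the cleavage of a matching mRNA. The apoC-III ASO was given to 5 mice and a control ASO to 4 mice, by weekly injection into the peritoneum, and the livers were taken after fasting. Every mouse in both groups was Apoe-/-Ndst1 f/f Alb-Cre+ on a C57Bl/6 background, so it lacked apoE everywhere and lacked Ndst1, a heparan sulfate sulfotransferase, in cells in which the albumin promoter drove Cre, mainly hepatocytes. No mouse with intact Apoe or Ndst1 was in the comparison. The age, sex and diet of these mice and the hour at which each liver was taken are not given beside the sequencing in the sources used here. Whether the hour of collection differed between the livers was therefore not tested.

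The clock of a liver cell is a loop in which the activators BMAL1 (encoded by Arntl) and CLOCK, or its relative NPAS2, bind E-box sequences and switch on their own repressors, the period and cryptochrome genes. DBP, TEF and HLF, the PAR bZIP factors, are output activators that bind D-box sequences, and NFIL3 (E4BP4) competes for the same sequences as a repressor. REV-ERBα (Nr1d1) and REV-ERBβ (Nr1d2) are nuclear receptors that repress Arntl, Clock, Npas2 and Nfil3, whereas the ROR receptors (Rora here) activate through the same response elements. DEC1 (Bhlhe40) and DEC2 (Bhlhe41) repress E-box genes. In liver, Dbp and Nr1d1 are among the genes with the largest daily swings, and Dbp and Arntl peak at opposite times of day.

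Promoter windows of the genes are shown first because these loops run through short promoter sequences. RefSeq windows (GRCm38.p6) of 300 bases, most of them upstream of the annotated start, were found for 8 of the 9 genes. The E-box searched was CACGTG, which reads the same on both strands. The Rev-erb/ROR half-site searched was AGGTCA, read on either strand. The D-box searched was TTATGTAA or TTACGTAA on either strand. The motifs share no position in these windows. Capitals mark the match, and each window is written 5′ to 3′ along the strand of its gene.
Tef, chr15:81802423-81802722, plus strand, with an E-box that begins 127 bases before the start: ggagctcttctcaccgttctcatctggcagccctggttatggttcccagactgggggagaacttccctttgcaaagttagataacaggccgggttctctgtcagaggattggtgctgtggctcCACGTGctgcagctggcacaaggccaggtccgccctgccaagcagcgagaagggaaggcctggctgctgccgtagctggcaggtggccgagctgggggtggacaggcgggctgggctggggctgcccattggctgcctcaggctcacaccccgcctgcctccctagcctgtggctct
Bhlhe41, chr6:145865371-145865670, minus strand, with an E-box that begins 153 bases before the start: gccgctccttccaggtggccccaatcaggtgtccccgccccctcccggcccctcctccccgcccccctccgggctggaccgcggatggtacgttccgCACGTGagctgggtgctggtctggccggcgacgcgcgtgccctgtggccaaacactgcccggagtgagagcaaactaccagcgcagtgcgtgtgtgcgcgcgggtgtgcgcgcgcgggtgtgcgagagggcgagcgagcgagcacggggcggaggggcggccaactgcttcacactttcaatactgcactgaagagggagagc
Nfil3, chr13:52980990-52981289, minus strand, with a half-site in reverse orientation that begins 12 bases before the start: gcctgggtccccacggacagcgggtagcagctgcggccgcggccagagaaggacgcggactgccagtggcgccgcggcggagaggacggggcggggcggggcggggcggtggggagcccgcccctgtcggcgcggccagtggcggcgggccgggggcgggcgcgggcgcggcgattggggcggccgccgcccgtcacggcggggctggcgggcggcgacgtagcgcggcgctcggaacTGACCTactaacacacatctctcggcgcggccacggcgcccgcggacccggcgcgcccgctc
Nr1d2, chr14:18239057-18239356, minus strand, with a half-site that begins 77 bases before the start: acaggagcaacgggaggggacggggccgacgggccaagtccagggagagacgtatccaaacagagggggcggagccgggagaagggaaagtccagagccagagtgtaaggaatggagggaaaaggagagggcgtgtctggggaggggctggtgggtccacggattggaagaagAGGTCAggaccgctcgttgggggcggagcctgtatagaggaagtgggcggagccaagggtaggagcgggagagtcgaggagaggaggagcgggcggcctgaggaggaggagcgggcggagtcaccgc
A further Tef start on chromosome 15 also had CACGTG, beginning 138 bases before it. An E-box was thus in windows of 2 of 8 genes, and the half-site was also in 2 of 8. The shares, counted per window rather than per gene, were 7.2% and 16.3% of all 32851 windows of this length. Among the 11990 windows of tested genes they were 9.5% and 13.3%. The D-box was in none of the 8 and in 1.1% of all windows. These are matches of letters only, and they say nothing of binding in these livers.

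The unit of the table was transcripts per 1000000 (TPM), a gene's share of a library after correction for its length, so levels of different genes can be set side by side. TPM keeps no sequencing depth, so no counting error can be given for a single liver. The small cytoplasmic RNAs Rn7s1 and Rn7s2 took 64.0% to 83.6% of each library, and nuclear protein-coding genes took 1.94% to 8.64%. The values were therefore rescaled so that the 21857 nuclear protein-coding genes summed to 1000000 in each liver, and a level below is this share, per 1000000, unless TPM is named. One library stood apart. In control ASO replicate 4, 10 genes held 63.7% of the rescaled total, beside 25.1% to 46.2% in the other 8, and its median-of-ratios factor, which measures how the typical gene compares between livers, was 0.496 against 0.930 to 1.44. On the rescaled values the median gene was 0.41 log2 units higher in the apoC-III ASO group, with 10600 of 12051 genes on the higher side, and without control ASO replicate 4 it was 0.20 higher. After division by the factors the median gene was at -0.0013, and the fold changes of the 9 genes below are given on both scales. Apoc3, the target of the ASO, was at 397 to 630 in the apoC-III ASO livers and at 2130 to 3679 in the control ASO livers, a decrease of 82.8% (p = 0.0159 in an exact two-sided permutation test that doubles the smaller tail, the smallest value this test can give here). All 8 hepatocyte markers were present, with a summed level of 23907 to 76287, and the defining adipose gene Adipoq and pancreatic gene Prss1 were listed at 0 in all livers, while the summed level of the 3 adipose markers was at most 1.501 and that of the 4 pancreas markers 1.87 to 4.76. The summed level of 4 erythroid markers was 932 in apoC-III ASO replicate 4 and 1003 in control ASO replicate 4, against 59.4 to 182 in the other livers, and its part in the results was not tested. In whole liver, fewer cells of a type and less RNA per cell cannot be told apart.

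Of the 9 genes, Dbp varied most between the livers when measured by the SD of log2(level + 1). It was at 3.96, 31.9, 3.21, 154 and 92.8 in apoC-III ASO replicates 1 to 5, while the control livers, in the same order of number, were at 95.9, 90.6, 93.9 and 33.8. Replicates 1 and 3 of the apoC-III ASO group were thus far below every control liver, and replicates 4 and 5 lay near or above the highest. Replicate 2 was just below the lowest, control ASO replicate 4. With the factors these 2 livers were further apart, at 22.2 and 68.2. The ratio of Dbp to Tef was 0.0488 to 0.131 in apoC-III ASO replicates 1 to 3 and 0.218 to 0.723 in the other 6 livers. The highest apoC-III ASO liver was at 48.0 times the lowest for Dbp, whereas the control livers spanned 2.83-fold, or 1.51-fold with the factors, and lay within 90.6 to 95.9 without replicate 4. The spread of Dbp over the 9 livers, an SD of 1.93 log2 units, was place 61 among the 12051 genes tested. By highest over lowest of the 9 livers, Bhlhe41 at 71.4-fold and Nr1d1 at 64.2-fold spanned more than Dbp at 48.0-fold. The group means of Dbp were 57.1 ± 65.2 (SD, n = 5) with the apoC-III ASO and 78.6 ± 29.9 (SD, n = 4) with the control ASO. The SD within the apoC-III ASO group was thus larger than the difference between the means.

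Tef was the most abundant of the 9 genes, at a mean of 221 over all livers, and it was above the next gene in the order, Dbp, in 9 of 9 livers. It was at 64.6, 243, 65.8, 439 and 427 in apoC-III ASO replicates 1 to 5 and at 182, 346, 176 and 46.8 in the controls. Control ASO replicate 4 was lowest, followed by apoC-III ASO replicates 1 and 3, and the groups overlapped. With the factors apoC-III ASO replicates 1 and 3 were lowest, at 47.7 and 55.4, followed by control ASO replicate 4 at 94.3. Hlf was at 8.67, 14.6, 32.4, 28.6 and 16.0 with the apoC-III ASO and at 33.9, 24.7, 20.1 and 4.68 with the control ASO. In apoC-III ASO replicate 3, where Dbp and Tef were low, Hlf was among the highest, so that it made up 32.0% of the summed PAR bZIP level there, beside 2.99% to 11.2% in the other 8 livers. Tef made up 54.9% to 83.9% of that sum and Dbp 3.16% to 39.7%.

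Nfil3, the repressor that competes with them, was at 15.3, 15.4, 20.7, 5.79 and 8.25 in the apoC-III ASO livers and at 3.08, 5.96, 4.10 and 3.32 in the control livers. The 3 livers with the lowest Dbp had the highest Nfil3, and apoC-III ASO replicate 4, at 5.79, lay below the highest control liver, at 5.96, so that the groups overlapped by this 1 pair. The means were 13.1 ± 6.01 (SD, n = 5) and 4.11 ± 1.30 (SD, n = 4). Because both genes come from the same library, the ratio of Dbp to Nfil3 does not depend on the scaling. That ratio was 0.259, 2.07, 0.155, 26.6 and 11.3 in the livers on the apoC-III ASO and 31.2, 15.2, 22.9 and 10.2 in those on the control ASO, a range of 201-fold. Replicates 1 to 3 with the apoC-III ASO were below all 6 other livers, and replicates 4 and 5 were inside the control range. The summed PAR bZIP level over Nfil3 was 5.05, 18.8, 4.90, 107 and 64.9 with the apoC-III ASO and 101, 77.4, 70.9 and 25.7 with the control ASO, in which the same 3 livers were lowest.

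**Figure D1:**
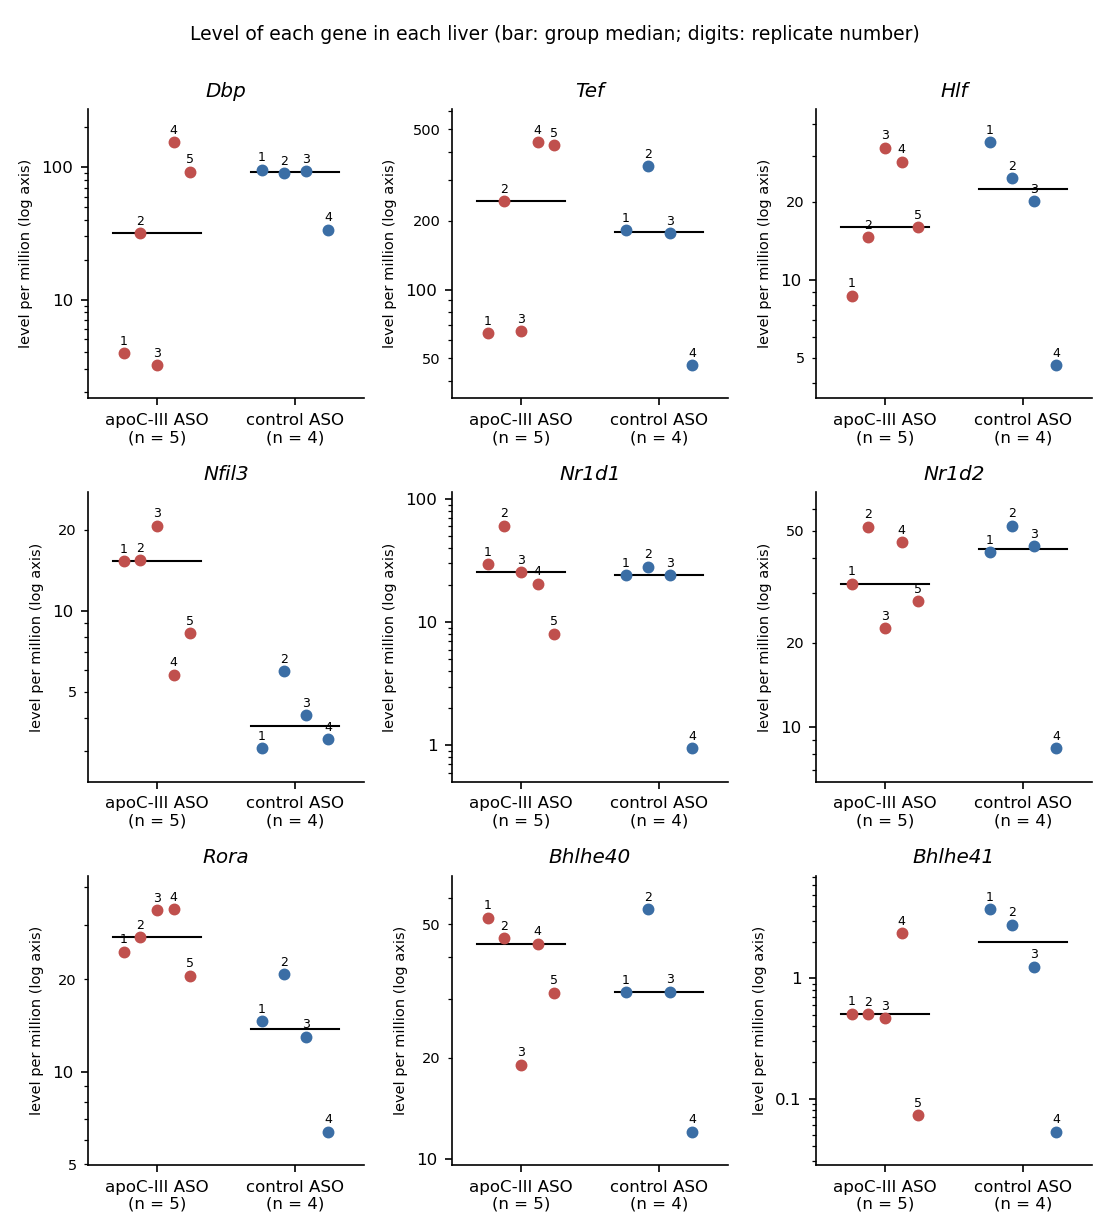
Level of each of the 9 genes in each liver, per 1000000 of nuclear protein-coding genes on a log axis, for 5 apoC-III ASO livers (red) and 4 control ASO livers (blue), with bars at the group medians and digits for replicate numbers. Dbp ran from 3.21 to 154 within the apoC-III ASO group, Nfil3 was at 15.3 to 20.7 in 3 of its livers, and control ASO replicate 4 was lowest of the controls for every gene but Nfil3.

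Of the REV-ERB receptors, Nr1d1 was at 29.5, 60.7, 25.6, 20.5 and 8.10 in the apoC-III ASO livers and at 24.0, 28.2, 24.0 and 0.946 in the control livers. The other 3 control livers lay within 24.0 to 28.2, and control ASO replicate 4 was lower than any other liver, at 0.0184 TPM as deposited. Nr1d1 lies on chromosome 11 (98767932 to 98775333, minus strand) and shares 1075 bases with Thra, a thyroid hormone receptor gene on the opposite strand. How strand was used in the deposited values is not given in the sources used here, so reads of the shared bases cannot be told apart. Thra itself was at 7.91 to 13.6 with the apoC-III ASO and 3.51 to 4.47 with the control ASO, and with the factors the ranges overlapped, at 5.84 to 12.2 and 3.77 to 7.50. Dbp likewise shares 737 bases with Sphk2, a sphingosine kinase gene on the opposite strand. Nr1d2 was at 32.4, 51.9, 22.5, 45.6 and 28.1 with the apoC-III ASO and at 42.1, 52.2, 44.1 and 8.39 with the control ASO, so that the control values without replicate 4 lay within the apoC-III ASO range or just above it.

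The ratio of Nr1d1 to Nr1d2 within a liver was 0.909, 1.17 and 1.14 in apoC-III ASO replicates 1 to 3, and 0.449 and 0.288 in replicates 4 and 5. Among the controls it was 0.570, 0.541 and 0.545 for replicates 1 to 3, with replicate 4 at 0.113. The 3 livers with low Dbp thus had the highest ratio of Nr1d1 to Nr1d2 of the 9.

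Rora, the activating receptor, was at 24.5, 27.4, 33.5, 33.8 and 20.5 with the apoC-III ASO and at 14.6, 20.7, 13.0 and 6.38 with the control ASO. The means were 28.0 ± 5.75 (SD, n = 5) and 13.7 ± 5.90 (SD, n = 4). Only apoC-III ASO replicate 5, at 20.5, lay below a control liver, replicate 2 at 20.7, and the livers with low Dbp did not stand apart from the rest of their group. After the factors, Rora was at 18.1 to 33.4 with the apoC-III ASO and at 12.9 to 17.9 with the control ASO, with no overlap. The ratio of Nr1d1 to Rora, a repressor against an activator of the same elements, was 1.20, 2.21, 0.763, 0.607 and 0.394 with the apoC-III ASO and 1.64, 1.36, 1.85 and 0.148 with the control ASO, and the groups overlapped. Rorb, the ROR gene of brain and retina, did not exceed 0.607 in any liver.

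Bhlhe40 was at 52.3, 45.5, 19.1, 43.8 and 31.3 with the apoC-III ASO and at 31.4, 55.6, 31.5 and 12.0 with the control ASO. It had the smallest spread of the 9 genes over the 9 livers, place 3695 of 12051, and showed no separation of the livers with low Dbp. Bhlhe41 was the least abundant of the 9, at 0.508, 0.506, 0.466, 2.38 and 0.0730 with the apoC-III ASO and at 3.78, 2.81, 1.25 and 0.0530 with the control ASO. Its highest deposited value was 0.327 TPM, so few reads may lie behind it, and 3 of 4 control livers were above 4 of 5 apoC-III ASO livers. By mean level over the 9 livers the order after Tef and Dbp was Nr1d2, Bhlhe40, Nr1d1, Rora, Hlf, Nfil3 and Bhlhe41. Nr1d2 was above Bhlhe40 in 5 of 9 livers and Nr1d1 above Rora in 5 of 9, so these neighbours did not differ beyond their spread. Nfil3 was above Bhlhe41 in 8 of 9 livers.

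**Figure D2:**
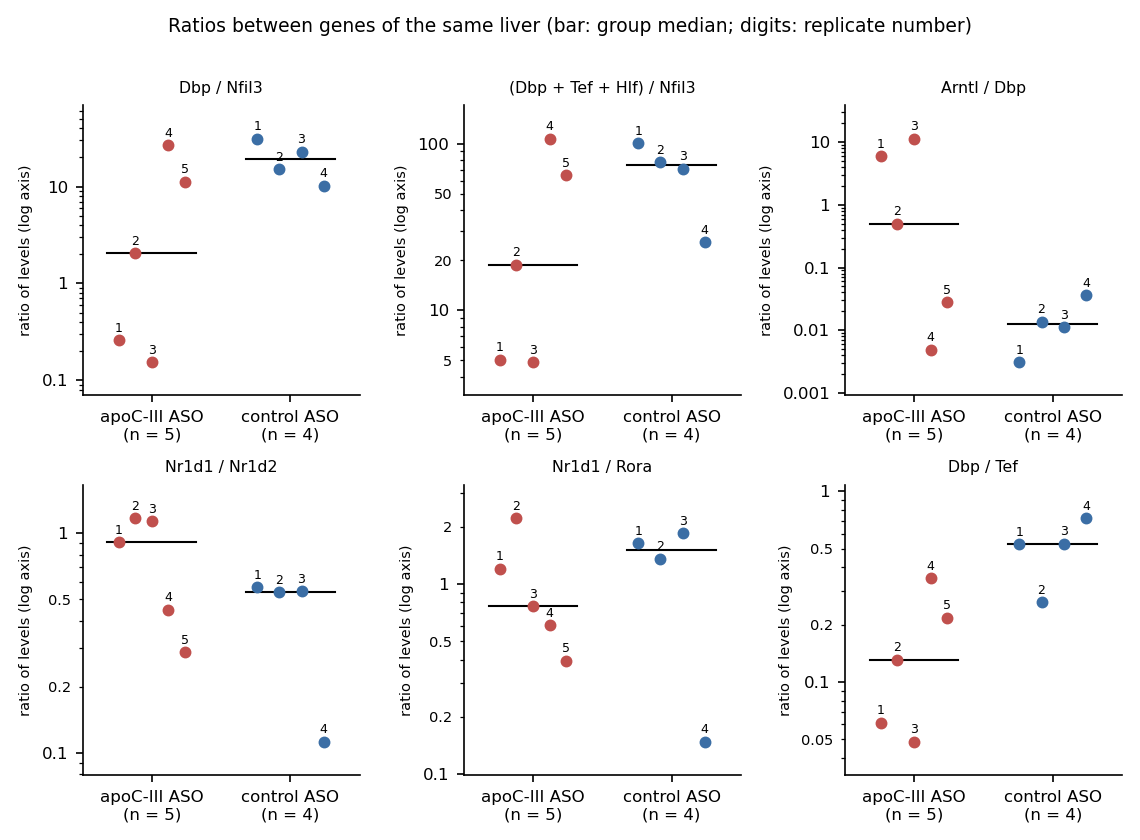
Ratios between genes of the same liver on log axes, which do not depend on how the liver is scaled, for 5 apoC-III ASO and 4 control ASO livers, with bars at the group medians and digits for replicate numbers. For Dbp over Nfil3, apoC-III ASO replicates 1 to 3 lay at 0.155 to 2.07 and the other 6 livers at 10.2 to 31.2, and for Dbp over Tef the same 3 livers were lowest, at 0.0488 to 0.131.

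The clock genes upstream of these factors split the livers in the same way. Arntl was at 23.9, 15.9 and 36.7 in apoC-III ASO replicates 1 to 3 and at 0.298 to 2.61 in the other 6 livers. Clock was at 34.4, 35.8 and 30.5 in those 3 and at 5.28 to 11.7 in the other 6, and Npas2 was at 2.86, 0.736 and 5.36 in those 3 and at most 0.0710 elsewhere. Ciart, a repressor of the BMAL1-CLOCK pair, was at 3.69 to 5.52 in those 3 and at 52.4 to 268 elsewhere. Per3 was at 4.34, 10.1 and 1.77 in those 3 and at 36.5 and 31.9 in apoC-III ASO replicates 4 and 5. In the controls it was at 61.7, 49.4, 42.1 and 5.29, so that on this scale control ASO replicate 4 joined the low livers. Per2 was at 4.54, 11.9, 5.70, 25.4 and 38.5 with the apoC-III ASO. With the control ASO it was at 81.9, 150, 78.2 and 6.02, so that here too control ASO replicate 4 joined the low livers. With the factors that liver was at 10.66 for Per3 and 12.12 for Per2. For both genes it then lay above apoC-III ASO replicates 1 to 3 and below each remaining liver. On the rescaled values Per1, Cry1 and Cry2 showed no such split. Their apoC-III ASO ranges were 12.1 to 52.4, 3.65 to 7.58 and 23.0 to 40.5. Their control ranges were 15.9 to 56.4, 2.17 to 15.8 and 9.56 to 34.1. With the factors Per1 did split, at 18.96, 24.46 and 10.19 in apoC-III ASO replicates 1 to 3, below every other liver. Cry2 was then at 16.97, 20.75 and 20.23 in those 3, below every other liver but control ASO replicate 4, at 19.25. Cry1 showed no split with the factors either. Arntl over Dbp, which sets an activator of the loop against its output, was 6.04, 0.499 and 11.4 in apoC-III ASO replicates 1 to 3, and 0.00310 to 0.0361 in the other 6 livers. The replicates 1 to 3 were not a group of the study, and no test was made between them and the other livers.

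**Figure D3:**
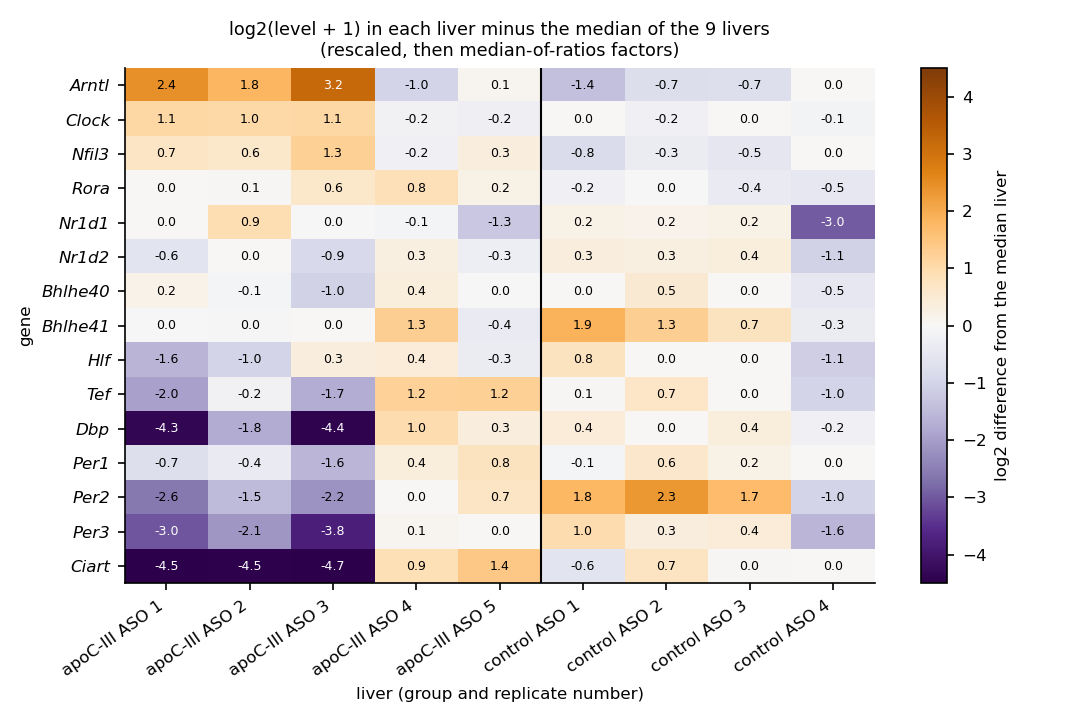
Difference of log2(level + 1) from the median of the 9 livers for 15 clock genes (rows) in each liver (columns, 5 apoC-III ASO and 4 control ASO), after the median-of-ratios factors. Arntl, Clock and Nfil3 were above the median and Dbp, Per2, Per3 and Ciart below it in apoC-III ASO replicates 1 to 3, whereas Nr1d1 was lowest in control ASO replicate 4, at -2.97.

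The comparison of the treatment groups was made for all genes at once with limma on log2(level + 1). To be called, a gene had to differ by more than 1.5-fold with an adjusted p (Benjamini-Hochberg) under 0.05. None of the 9 genes was called, in either direction, beside 0.00830% of all genes tested, which was Apoc3 alone. At an unadjusted p under 0.05 there were 2 of the 9, Nfil3 and Rora, beside 11.0% of all genes tested, and both were higher, beside 10.7% of all genes on that side. With the factors the same 2 genes were below an unadjusted 0.05, beside 5.57% of all genes then tested. In no gene of the 9 were the groups without overlap, beside 3.92% of all genes tested, and with the factors Rora alone was without overlap, beside 1.83%. Since the 9 genes were chosen with these values known, the counts are a description.

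Nfil3 had a log2 fold change of 1.37 (SE 0.38, 95% interval 0.55 to 2.19, limma adjusted p = 0.451), and of 0.96 with the factors (95% interval 0.30 to 1.61, limma adjusted p = 0.860). For Rora the log2 fold change was 1.06 (SE 0.35, 95% interval 0.31 to 1.80, limma adjusted p = 0.451), and with the factors it was 0.61 (95% interval 0.11 to 1.12, limma adjusted p = 0.871). Relative to the median gene of each scale, the 2 genes thus stood about as far up before the factors as after them. Dbp had the largest difference on the lower side, -1.55 (SE 0.91, 95% interval -3.50 to 0.40, limma adjusted p = 0.469), and -1.99 with the factors (95% interval -4.20 to 0.22). Single livers moved it, to -0.91 without apoC-III ASO replicate 3, -0.97 without replicate 1, -2.03 without replicate 5 and -2.21 without replicate 4, and it was below an unadjusted 0.05 in the last 2 fits. Bhlhe41 was at -0.64 (95% interval -1.61 to 0.33) and at -0.73 with the factors, with -0.34 without control ASO replicate 1 and -1.07, below an unadjusted 0.05, without control ASO replicate 4. Nr1d1 was at 0.86 (95% interval -0.69 to 2.42) and at 0.50 with the factors, but at 0.54 without apoC-III ASO replicate 2 and at -0.075 without control ASO replicate 4.

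The other 4 genes changed sign with the scaling. Tef was at 0.26 and -0.21 with the factors, Hlf at 0.076 and -0.35, Nr1d2 at 0.18 and -0.27, and Bhlhe40 at 0.33 and -0.13, with 95% intervals that held 0 on both scales. Rescaling alone thus put 7 of the 9 genes on the higher side and 2 on the lower, and the factors put 3 on the higher side and 6 on the lower. The median of the 9 was 0.26 beside 0.41 over all genes tested, and -0.21 beside -0.0013 with the factors. Without control ASO replicate 4, and with no factors, the split was 2 higher and 7 lower.

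**Figure D4:**
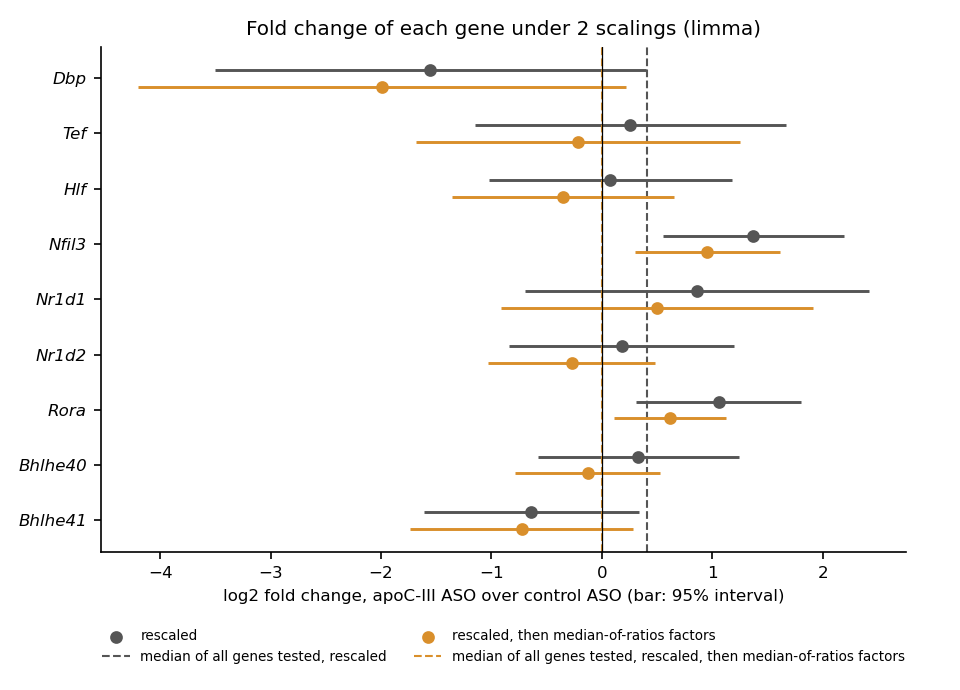
Log2 fold change of each of the 9 genes, apoC-III ASO (n = 5) over control ASO (n = 4), with 95% limma intervals, after rescaling (grey) and after rescaling and median-of-ratios factors (orange), with dashed lines at the median of all genes tested. Only the intervals of Nfil3 and Rora lay wholly above 0, and Tef, Hlf, Nr1d2 and Bhlhe40 had opposite signs on the 2 scales.

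Genes around the 9 were taken from lists of targets and partners. Their counts are read beside the 11.0% of all genes tested that had an unadjusted p under 0.05, and 5.57% with the factors. On the lower side alone these were 41 of 12051 genes, and 308 of 11968 with the factors. The higher side held 1287 and 359 of the same totals. In sign alone 10600 of 12051 genes were higher, and 5968 of 11968 with the factors. Of 9 core clock genes tested, 0 were called, 2 were higher at an unadjusted p under 0.05 (Arntl and Clock) and 1 was lower (Per2). With the factors, 1 of 8 was higher (Arntl) and 2 were lower (Per2 and Per3). Arntl had a log2 fold change of 2.39 (SE 0.74, limma adjusted p = 0.451), and of 2.02 with the factors. Clock was at 1.07, and at 0.63 with the factors, and Npas2, which had too low a mean to be tested with the factors, at 1.02. Per2, Ciart and Per3 were at -1.90, -1.88 and -1.40, and at -2.31, -2.31 and -1.80 with the factors. Per2 was at -2.86 without control ASO replicate 4. Per1, Cry1 and Cry2 were at -0.027, 0.18 and 0.32, and with the factors at -0.48, -0.21 and -0.13.

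None of 10 PAR bZIP targets was called, and 1 was lower at an unadjusted p under 0.05, beside 41 of 12051 genes tested. With the factors all 10 were on the lower side, beside 6000 of 11968 genes. Of these 10, 3 were below an unadjusted 0.05, beside 308 of 11968 genes lower at that level. Their median log2 fold change was -0.64. Without the factors 6 were lower and 4 higher, beside 1451 of 12051 genes lower. Cyp2a4, a steroid hydroxylase, was at 0.635, 100, 60.1, 1.38 and 172 with the apoC-III ASO and at 89.4, 153, 191 and 75.7 with the control ASO. It did not follow Dbp from liver to liver, since apoC-III ASO replicate 4 had the highest Dbp and a Cyp2a4 level next to the lowest. Cyp2c37, a xenobiotic and fatty acid oxidase, was at 47.5 to 106 with the apoC-III ASO and 86.3 to 151 with the control ASO. Cyp7a1, the rate-limiting enzyme of bile acid synthesis, was at 101 to 244 and 50.2 to 538.

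Of 10 Rev-erb and ROR targets tested, a list that holds Nfil3, Arntl and Clock themselves, 0 were called. At an unadjusted p under 0.05, 4 were higher, beside 10.7% of all genes on that side. In sign 9 were higher and 1 lower, beside 10600 of 12051 genes higher. The median was 0.78, beside 0.41 over all genes tested. Of the 8 genes that could be tested with the factors, 2 were higher at an unadjusted p under 0.05, beside 359 of 11968 genes. In sign 5 of them were higher and 3 lower, beside 5968 of 11968 genes higher. Their median was 0.33, beside -0.0013 over all genes. Of 12 E-box outputs, a list that holds 5 of the 9 genes, 0 were called and none passed an unadjusted 0.05. Its median was -0.35, and with the factors -0.71. The deubiquitinase gene Usp2 was at 3.93, 5.08 and 0.921 in apoC-III ASO replicates 1 to 3 and at 20.2 to 57.0 in the other 6 livers. The ubiquitin ligase gene Lonrf3 was at 2.08 to 8.37 and 0.680 to 6.05. Among 8 clock kinases, ligases and phosphatases, 0 were called and none passed an unadjusted 0.05, and the kinase gene Gsk3b was at 23.9 to 34.5 with the apoC-III ASO and 8.55 to 26.3 with the control ASO.

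REV-ERB proteins repress through the NCoR1-HDAC3 corepressor and bind heme. Of 7 corepressor and heme genes, 0 were called and 2, Hdac3 and Tbl1xr1, were higher at an unadjusted p under 0.05, while with the factors this held for Hdac3 alone. In sign 6 were higher and 1 lower, beside 10600 of 12051 genes higher. With the factors this was 4 and 3, beside 5968 of 11968. Hdac3 was at 33.0, 44.3, 44.9, 25.2 and 30.3 with the apoC-III ASO and at 17.8, 16.1, 19.95 and 7.15 with the control ASO, without overlap on either scale. Its log2 fold change was 1.22 (SE 0.35, limma adjusted p = 0.451), and 0.77 with the factors. Tbl1xr1 was at 37.2 to 79.1 and 20.5 to 63.1, and Ncor1 at 114 to 329 and 76.3 to 221. Fasting and glucocorticoids act on the liver clock from outside, and of 12 such genes 0 were called and 1, Pdk4, was higher at an unadjusted p under 0.05, but with the factors none was. In sign 11 were higher and 1 lower, and with the factors 7 and 5, beside the same shares of all genes. Pdk4, which spares glucose in fasting, was at 4.71 to 22.3 and 1.51 to 12.3, Irs2 at 6.05 to 12.8 and 2.28 to 8.79, and Zbtb16 at 103 to 225 and 35.1 to 143.

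Correlations between the 9 genes were computed over the 9 livers on the log2 scale, as a description with no test. The livers share their preparation and scaling, and they fall into separate ranges of Arntl and Nfil3, so a value over all 9 mostly reads whether a gene follows that split and the low level of control ASO replicate 4. Of the 36 pairs, 17 had a Pearson r over 0.5 and 1 was under -0.5, with a median of 0.48. The median was 0.17 without control ASO replicate 4, with 8 pairs over 0.5 and 4 under -0.5. With the factors and without that liver, 10 pairs were over 0.5 and 5 under -0.5. Within the 6 livers with Arntl under 3, which include control ASO replicate 4, 29 pairs were over 0.5 and 0 under -0.5, whereas with the factors 19 were over 0.5 and 4 under -0.5.

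The pairs named here were chosen after their values were seen. Dbp and Tef had r = 0.77 and rho = 0.60. Their r was 0.89 without control ASO replicate 4, 0.85 with the factors and 0.65 without the 2 livers farthest from the median of Dbp. Within the 6 livers, r of Dbp and Tef was 0.89, and 0.65 with the factors. Dbp and Nfil3 had r = -0.75 and rho = -0.73, with -0.84 with the factors and -0.30 without the 2 farthest livers. Within the 6 livers their r was 0.46, and -0.16 with the factors, so the inverse order of the 2 genes rested on apoC-III ASO replicates 1 to 3 against the rest. The REV-ERB pair had r = 0.87 and rho = 0.53, and 0.49 without control ASO replicate 4, which had the lowest level of both. With the factors its r was 0.62, and 0.27 with the factors and without that liver. Without the 2 livers farthest from the median of Nr1d1 it was 0.29, and within the 6 livers, which include control ASO replicate 4, it was 0.99. Nr1d2 and Bhlhe40 had r = 0.88 and rho = 0.83. Their r was 0.69 without control ASO replicate 4 and 0.35 without the 2 livers farthest from the median of Nr1d2. Nr1d2 and Bhlhe41 had r = 0.65 and rho = 0.70, and Hlf and Bhlhe41 had r = 0.69 and rho = 0.63. Nfil3 and Rora had r = 0.73 and rho = 0.68, but r was 0.28 for the deviations from the group means. Nfil3 and Nr1d2, of which the second represses the first by background knowledge, had r = 0.11 and rho = 0.02, and r was -0.69 with the factors and -0.52 without control ASO replicate 4. Nfil3 and Nr1d1, a repressor of Nfil3 by the same background, had r = 0.49 and rho = 0.62. Their r was 0.015 with the factors, and -0.075 with the factors and without that liver, so the 2 REV-ERB genes differed over these livers. Within the 6 livers they were alike, with r to Nfil3 of 0.18 for Nr1d1 and 0.31 for Nr1d2. With the factors these were -0.66 and -0.62.

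**Figure D5:**
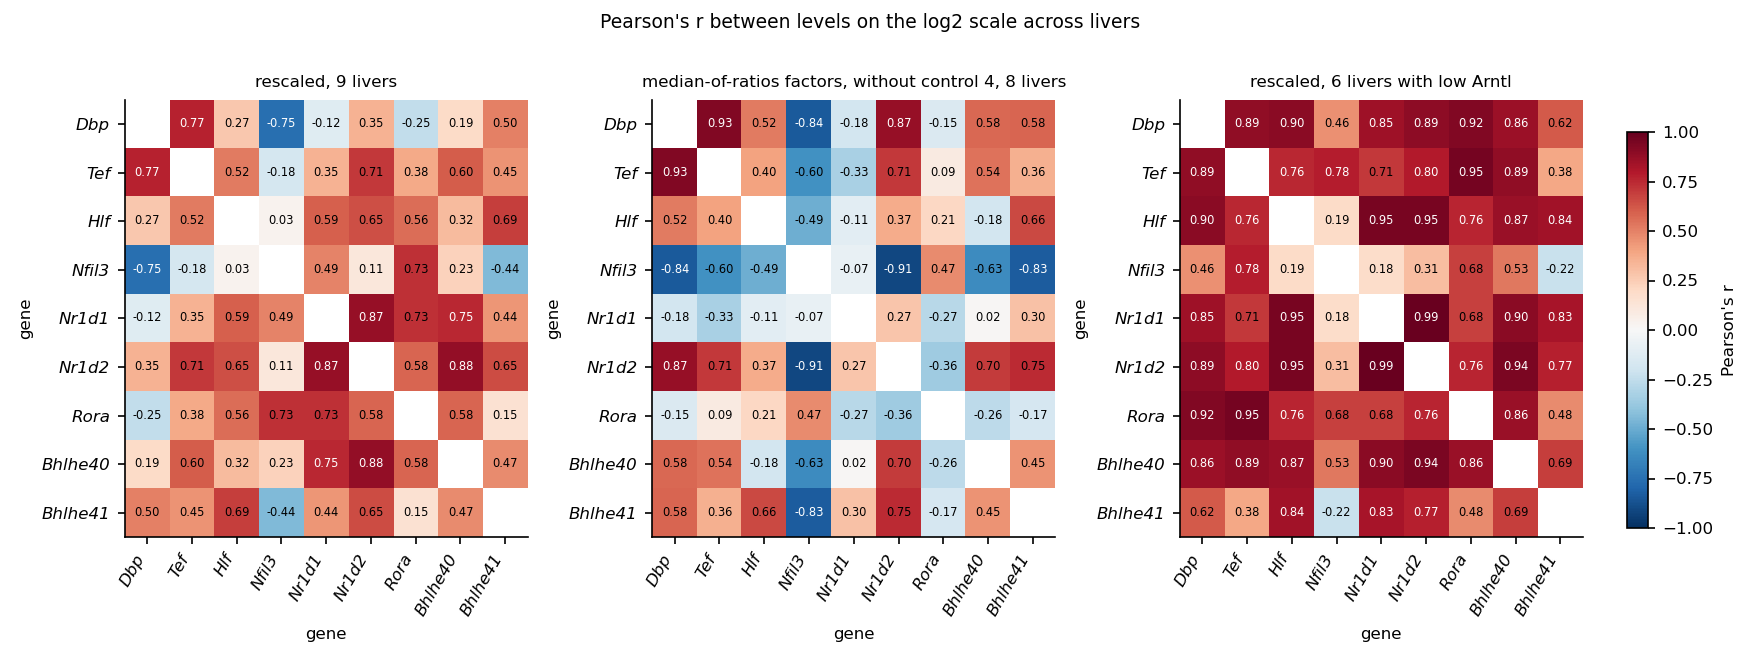
Pearson's r between the log2 levels of each pair of the 9 genes (rows and columns, colour from -1 to 1), over 9 livers after rescaling (left), over 8 livers with median-of-ratios factors and without control ASO replicate 4 (middle) and over the 6 livers with Arntl under 3 (right). Dbp and Tef were positive in all 3 panels, whereas Dbp and Nfil3 were at -0.75, -0.84 and 0.46, the last of which was -0.16 with the factors.

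The genes whose levels over the 9 livers were most like those of 5 of the genes were taken from 8726 genes with a mean of at least 5, by Pearson r on the log2 scale. For Dbp they were Upp2 (0.95), a uridine phosphorylase of liver, E030018B13Rik (0.93) and 1110034G24Rik (0.92), and the most opposite were Cyp20a1 (-0.96) and Hdac5 (-0.95). With the factors Upp2 was at 0.97, whereas Cyp20a1 was at -0.53 and Hdac5 at -0.66. For Nr1d1 the nearest were Kansl2 (0.997), Wdr7 (0.993) and Lnpep (0.989), each of which was lowest in control ASO replicate 4, and the most opposite were Gm11273 (-0.87) and Gm45233 (-0.85). Gm11273 was at 72.9 in that liver and listed at 0 in the other 8. For Nfil3 they were Chkb (0.98), Cmtr1 (0.97) and Nat10 (0.97), with Fam102a (-0.94) and Usmg5 (-0.81) most opposite. With the factors these 5 were at 0.89, 0.69, 0.88, -0.72 and -0.52. For Rora the nearest were Pias4 (0.98), Spns1 (0.98) and Tmem106b (0.97), with Rpgrip1 (-0.81) and Anpep (-0.77) most opposite. With the factors these 5 were at 0.91, 0.91, 0.71, -0.58 and -0.75. For Bhlhe41 the nearest included Hes6 (0.91) and Slc9a3r1 (0.90), with Sun1 (-0.92) and Ftl1-ps1 (-0.90) most opposite. With the factors Hes6 was at 0.75 and Slc9a3r1 at 0.69.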

How the data were processed

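RNA from 9 livers was sequenced (ribosomal RNA-depleted, stranded, single-end). One TPM value per gene and liver was deposited by the authors, and their notes name kallisto 0.43.1 and GRCm38. The study's methods describe another pipeline for its counts, which were not used here. Replicates were separate mice as far as the titles show, so p-values measure the spread between these livers. Identifiers were matched to GENCODE M21 (99.63% of 51912). TPM of nuclear protein-coding genes was rescaled to 1000000 per liver, and genes with a mean of at least 1 were fitted with limma 3.58.1 (R 4.3.3, trend, no covariates) on log2(value + 1), a scale that understates changes of low genes. The other steps ran in Python 3.11.15 (scipy 1.17.1, pandas 2.3.3, numpy 2.4.6), with figures by matplotlib 3.10.9. The fit was tested on simulated data.

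The 9 genes, the lists and the tests were chosen with earlier results of these data known. Named genes are the 9, Apoc3, the core clock list, Thra, the 3 smallest p-values of each other list of targets or partners, and the 3 most alike and 2 most opposite genes of 5 of the 9. Some genes that the lists or ranks would name are not reported here and are left out of the list counts. Gene windows came from RefSeq (GRCm38.p6). The alternatives were pseudocounts of 0.1 and 0.5, no minimum, a minimum of 5, median-of-ratios factors, TPM as deposited, quantile normalization, limma without trend, robust or with array weights, a replicate block, a permutation test per gene and each liver left out. Combinations of the factors with the block or without control ASO replicate 4, and correlations without that liver or within 6 livers, were added after seeing the data.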

Additional observations from a re-analysis of the deposited data

Results flagged for a closer look

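The lowest or highest liver of each group was compared with the rest of its group for the 9 genes and Apoc3, 20 groups in all, of which 3 had 1 liver far from the others. About 5% of groups would be set apart by chance. Dbp in control ASO replicate 4 had a level of 33.8 per 1000000, below the 90.6 to 95.9 of the other control livers. Nr1d1 in the same liver was at 0.946, below 24.0 to 28.2. Both belong to the library in which the median-of-ratios factor was 0.496, and after that factor Dbp there was at 68.2 and Nr1d1 at 1.91, so Nr1d1 was still far below the 24.3 to 25.8 of the other controls. Bhlhe41 in apoC-III ASO replicate 4 was at 2.38, above the 0.0730 to 0.508 of the other apoC-III ASO livers and within the range of the controls.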

How the results depend on the processing

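No gene of the 9 was called under any of the 24 alternatives that tested it (7 were tested on TPM as deposited, 4 on TPM with factors, 8 with a minimum of 5 and 9 elsewhere), with a lowest limma adjusted p of 0.0896 (Nfil3, array weights). Of 32 genes followed, 24 kept their sign under each alternative that could test them, Dbp, Nfil3, Rora and Bhlhe41 among them. The causes of the differences below were not tested, and depth, which TPM does not keep, limits the low genes. With the factors, 2 genes were called lower and 667 of 11968 had an unadjusted p under 0.05. The groups did not overlap for 1 of the 9 genes, beside 219 of 11968, and 10 pairs had r over 0.5. The log2 fold changes were then -0.21 for Tef, -0.35 for Hlf, -0.27 for Nr1d2, -0.13 for Bhlhe40, -0.21 for Cry1 and -0.13 for Cry2, and r of Nfil3 and Nr1d2 was -0.69. The deposited TPM, taken as it is, gave 5 calls higher and 6 lower, while 99 of 4936 genes had an unadjusted p under 0.05, among them 1 of 7. Hlf was then at -0.23, Nr1d2 at -0.19, Bhlhe40 at -0.015 and Cry2 at -0.055. TPM with factors gave 1 gene higher, 245 of 4437 at an unadjusted p under 0.05 and 0 of 4. Tef was then at -0.13, Nr1d2 at -0.18, Bhlhe40 at -0.067 and Cry2 at -0.065. Quantile normalization gave 2 lower and 661 at an unadjusted p under 0.05, with Tef at -0.18, Hlf at -0.39, Nr1d2 at -0.28, Bhlhe40 at -0.14, Cry1 at -0.25 and Cry2 at -0.15. Array weights gave 4 higher, 3 lower, 2054 of 12051 at an unadjusted p under 0.05 and 4 of the 9. Tef was then at -0.37, Hlf at -0.36, Nr1d2 at -0.33 and Cry2 at -0.10. The permutation test per gene gave 0 lower after adjustment, with 1456 genes under an unadjusted 0.05.

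With the factors and without control ASO replicate 4, 3 genes were called lower. An unadjusted p under 0.05 was found for 647 of 12069 genes, 4 of the 9 among them. The groups did not overlap for 2 of the 9, beside 479 of 12069 genes, and 10 pairs had r over 0.5. Tef was then at -0.52, Hlf at -0.69, Nr1d1 at -0.29, Nr1d2 at -0.62, Bhlhe40 at -0.28 and Cry2 at -0.29, and r of Nfil3 and Nr1d2 was -0.91. Without that liver alone 8 pairs had r over 0.5 and r of Nfil3 and Nr1d2 was -0.52. Without the 2 farthest livers 9 pairs had r over 0.5. Within the 6 livers with low Arntl 29 pairs did, and r of Dbp and Nfil3 was 0.46, whereas with the factors 19 did and that r was -0.16. Leaving out 1 liver at a time gave 0 to 2 genes higher and 1 to 3 lower. An unadjusted p under 0.05 was reached by 772 to 2060 genes, and by 2 to 3 of the 9. Without overlap were 0 to 2 of the 9, beside 570 to 1432 of all genes tested. The decrease of Apoc3 was 81.5% to 84.4%. The 772, of 12121 genes tested, was without control ASO replicate 4. The 2060, of 12026, was without control ASO replicate 2, which also gave the 2 of the 9 and the 1432 without overlap. The counts at an unadjusted p under 0.05 were 866 and 795 without apoC-III ASO replicates 1 and 2. The log2 fold changes ranged from -0.30 to 0.65 for Tef, -0.48 to 0.39 for Hlf, -0.075 to 1.23 for Nr1d1, -0.40 to 0.43 for Nr1d2, -0.068 to 0.64 for Bhlhe40, -0.33 to 0.29 for Per1, -0.12 to 0.68 for Cry1, -0.077 to 0.50 for Cry2, -2.21 to -0.91 for Dbp and -1.07 to -0.34 for Bhlhe41.

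Same-numbered livers of the 2 groups had correlations of their deviations of 0.07, 0.11, 0.03 and 0.19, beside -0.21 to 0.17 for livers of different number. Not every liver was most like its own number. Whether same-numbered livers were handled together is not given in the sources used here and cannot be told from these values. The replicate block gave 2 genes higher, 3 lower and 2830 at an unadjusted p under 0.05, with Tef at -0.049. The factors with the block gave 1 higher and 2 lower, with Tef at -0.60, Hlf at -0.38, Nr1d2 at -0.28, Bhlhe40 at -0.15, Cry1 at -0.33 and Cry2 at -0.22.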
